A study of Mus musculus with 6 samples.

Results

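The AP-1 family of transcription factors was followed in CD4 single-positive thymocytes that lacked Bach2 and in wildtype ones. The 10 members were Jun, Junb and Jund of the Jun branch, Fos, Fosb, Fosl1 and Fosl2 of the Fos branch, Batf and Batf3 of the Batf branch, and Atf3. They were chosen by name, because AP-1 and Bach2 bind related DNA motifs, with earlier results of these data known. All 10 had a probe set annotated with that single symbol, 1 probe set each, among 19938 genes measured. RNA was measured on 3 arrays of Bach2 knockout, Ly5.1- thymocytes and on 3 arrays of wildtype, Ly5.1+ thymocytes, all from male mice on a C57BL/6 background. Both groups had developed in mixed chimeras. Irradiated male Rag1 knockout hosts, 8 weeks old and without T or B cells of their own, had been given marrow of both genotypes in equal parts from donors of 8 weeks, and the thymus was sorted after 2 months. The samples were from separate mice per the design text, while the labels do not say whether a knockout and a wildtype array share a chimera. The labels do not name the deleted part of Bach2, and the Ly5.1 allele went together with genotype.

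AP-1 factors are basic leucine zipper proteins. They bind DNA as dimers, in which a Fos, Batf or Atf protein pairs with a Jun protein, or Jun proteins pair with each other. In T cells signals from the antigen receptor raise and activate them through MAP kinases, and they bind together with NFAT or IRF factors at cytokine and activation genes. Bach2 is a basic leucine zipper protein too, a repressor that pairs with small Maf proteins on sites that contain the AP-1 motif and that can compete with AP-1 for them.

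The promoters of Jun, Fos, Batf and Fosl2 are shown because Jun differed most between arrays, Fos is the classical immediate early member, and Batf and Fosl2 had the largest differences between genotypes. Each line gives the 250 bases before the transcription start, 5′ to 3′ on the gene's strand, from RefSeq on GRCm38.p6. Capitals mark TGACNTCA, a site that can bind Jun and Atf dimers, or TGACGT, which is part of the cyclic AMP response element.
Jun: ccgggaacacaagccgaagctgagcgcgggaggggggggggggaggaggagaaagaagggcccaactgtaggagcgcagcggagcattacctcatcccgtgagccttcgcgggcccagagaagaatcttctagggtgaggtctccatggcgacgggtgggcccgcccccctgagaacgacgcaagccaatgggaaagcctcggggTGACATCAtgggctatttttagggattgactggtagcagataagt
Fos: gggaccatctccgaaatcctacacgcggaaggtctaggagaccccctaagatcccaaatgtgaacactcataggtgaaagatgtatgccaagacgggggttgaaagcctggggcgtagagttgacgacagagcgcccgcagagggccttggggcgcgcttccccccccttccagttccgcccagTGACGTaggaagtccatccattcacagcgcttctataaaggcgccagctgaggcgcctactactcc
Batf: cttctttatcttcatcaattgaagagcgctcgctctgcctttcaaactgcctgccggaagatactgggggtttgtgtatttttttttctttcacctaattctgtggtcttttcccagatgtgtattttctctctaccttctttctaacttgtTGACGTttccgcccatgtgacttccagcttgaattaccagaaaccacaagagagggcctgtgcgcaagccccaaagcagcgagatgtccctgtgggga
Fosl2: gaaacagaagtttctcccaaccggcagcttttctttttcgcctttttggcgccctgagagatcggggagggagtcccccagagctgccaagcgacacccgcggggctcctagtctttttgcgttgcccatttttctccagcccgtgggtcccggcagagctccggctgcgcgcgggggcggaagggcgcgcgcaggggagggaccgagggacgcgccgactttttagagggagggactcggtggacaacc
They lie at chr4:95052223-95052472 (minus strand) for Jun, chr12:85473640-85473889 (plus strand) for Fos, chr12:85686470-85686719 (plus strand) for Batf and chr5:32136222-32136471 (plus strand) for Fosl2.

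A promoter window, from 250 bases before to 50 after the start, was on hand for 9 members and not for Fosl1. Searched on both strands, 0 of these 9 windows held the AP-1 site TGANTCA, which stood in 7.81% of all 32851 windows. The full cyclic AMP response element TGACGTCA (1.79% of windows), the motif TGANTCAGCA, an AP-1 site extended on one side as Bach and Maf dimers prefer (0.423%), and the CArG box bound by serum response factor (1.63%) were also in 0 of 9. The Jun window held TGACATCA, beginning 45 bases before the start, a form of TGACNTCA (8.83% of all windows). TGACGT (7.51% of all windows) was in 3 member windows, beginning 66 bases before the start in Fos and 98 in Batf, and within 8 bases of the start on the opposite strand in Atf3. TGACNTCA and TGACGT were added to the search after the sequences had been read, and both overlap the full element. These are matches of letters in short windows and say nothing of binding.

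Arrays correlated at 0.990 to 0.991 within knockout, 0.981 to 0.988 within wildtype and 0.984 to 0.989 between genotypes across probe sets, a description over features of the same arrays. Bach2 itself had log2 levels of 6.50, 6.42 and 6.52 in knockout replicates 1 to 3, against 7.89, 8.20 and 8.05 in wildtype replicates 1 to 3, a difference of -1.57 ± 0.11 (limma standard error, adjusted p = 0.000156). All 3 knockout arrays lay below all 3 wildtype arrays. The sorted type was checked on Cd4, Cd3e and Cd3d, which were at 10.34 to 10.35, 11.41 to 11.48 and 11.40 to 11.47 in knockout arrays, against 10.33 to 10.43, 11.39 to 11.45 and 11.35 to 11.43 in wildtype arrays. Of the 9 measured markers of this type, limma called 0. Cd3g, Cd5 and Zbtb7b differed by 0.03, -0.05 and -0.04, and Ccr7, S1pr1 and Klf2 by -0.15, -0.15 and -0.23. For Ccr7 and Klf2 every knockout array lay below every wildtype array. Over all genes 70 were higher and 43 lower in the knockout at an adjusted p under 0.05, which is 0.567% of those tested. Differences are knockout minus wildtype on the log2 scale throughout, and levels belong to each gene's own probe set, so they are not compared between genes.

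None of the AP-1 members passed the test. By limma 0 of 10 were called, against 0.567% of all genes, and the smallest adjusted p of a member was 0.57. An unadjusted p under 0.05 was reached by 2 of 10, Fosl2 and Batf, both lower in the knockout, against 6.91% of all genes in either direction and 3.87% as lower. The same 2 members were the ones whose knockout and wildtype values did not overlap, a state that held for 11.7% of all genes and, as lower, for 6.57%. In all, 9 members lay below 0 and 1 above, with a median difference of -0.07 beside -0.01 over all genes tested. Of all 19938 genes 10714 lay below 0. Among the 9, Junb, Fosb, Fosl1 and Batf3 changed sign when single arrays were left out. The differences ran from -0.27 for Batf to 0.01 for Fos. With 3 arrays a group a missed threshold does not show equal levels, so each member is given with its 95% confidence interval.

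**Figure D1:**
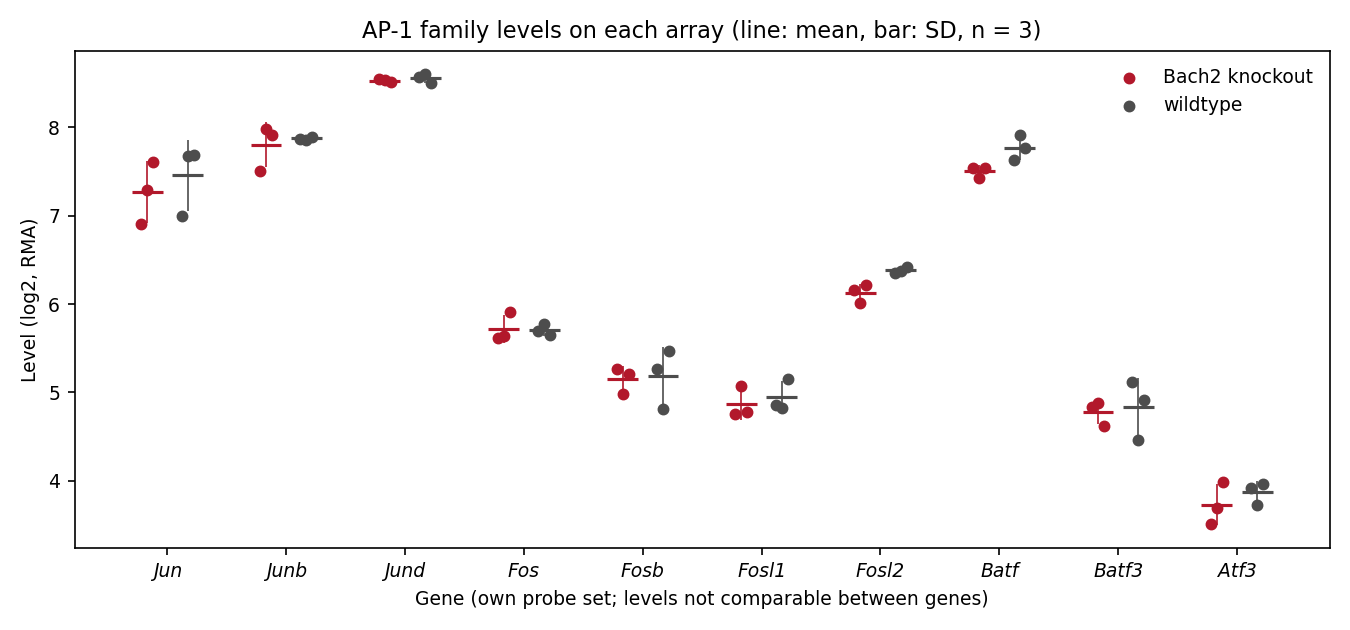
Level of each AP-1 member on each array (log2, RMA), Bach2 knockout left and wildtype right of each pair, with points for arrays, lines for means and bars for SD (n = 3 each). Batf and Fosl2 are the members whose knockout and wildtype points do not overlap, and Jun spans about as much within either genotype (0.70) as over all 6 arrays (0.78).

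The Jun branch supplies the partner that other AP-1 proteins need. Jun, its founding member and a strong activator, was at 6.91, 7.29 and 7.61 in knockout replicates 1 to 3, against 6.995, 7.68 and 7.69 in wildtype replicates 1 to 3. The groups overlapped, with replicate 1 the lowest in both. The difference was -0.19 ± 0.21 (95% interval -0.66 to 0.29, adjusted p = 0.98), the widest interval of the family. Jun was also the member with the largest span over the 6 arrays, 0.78, of which 0.70 was found within the knockout and 0.695 within the wildtype arrays.

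Leaving out 1 array moved the Jun difference between -0.42 and -0.01. It was -0.01 without knockout replicate 1 and -0.42 without wildtype replicate 1, the lowest array of either genotype. The array order of Jun was set beside Rag1, a recombinase gene of immature, double-positive thymocytes chosen here after its values were seen. Rag1 was at 6.55, 7.92 and 8.75 in knockout replicates 1 to 3, against 5.70, 6.61 and 7.09 in wildtype replicates 1 to 3, so within each genotype the arrays ranked as they did for Jun. The order of wildtype replicates 2 and 3 for Jun rests on a small gap, 7.68 against 7.69. Between genotypes Rag1 differed by 1.27 and Jun by -0.19. Of the 6 measured double-positive markers, 3 (Rag1, Cd8b1 and Dntt) ranked as Jun did in both genotypes, while Rag2, Ptcra and Cd8a did so in the knockout and not in the wildtype arrays. The share of all genes with this array order was not counted. Klf6 and Tnfaip3, immediate early genes outside the marker list, also ranked as Jun did in both genotypes, so the order is not particular to double-positive markers. The 6 double-positive markers averaged 6.66 to 7.93 in knockout arrays and 6.53 to 6.94 in wildtype arrays. Whether immature cells have a part in the spread of Jun was not tested. Jun shares chromosome 4 with Bach2, with 329 tested genes between them.

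Junb, a Jun protein that is strongly induced in activated helper T cells and pairs with Batf there, was at 7.51, 7.99 and 7.92 in knockout replicates 1 to 3, against 7.87, 7.86 and 7.90 in wildtype replicates 1 to 3. Knockout replicate 1 stood below the other 5 arrays, which lay within 7.86 to 7.99. Its difference was -0.07 ± 0.13 (interval -0.35 to 0.21, adjusted p = 0.99), and without knockout replicate 1 it turned to 0.08. Jund, which is made more constantly than the other Jun genes, was the steadiest member. It was at 8.54, 8.54 and 8.51 in knockout replicates 1 to 3, against 8.57, 8.60 and 8.50 in wildtype replicates 1 to 3, a span of 0.10 over all arrays. The genotypes overlapped, and the difference of -0.03 ± 0.09 had an interval of -0.23 to 0.17 (adjusted p = 0.998).

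Fos proteins cannot pair with each other and bind DNA only together with a Jun protein. Fos, the immediate early gene of the branch, was at 5.61, 5.64 and 5.91 in knockout replicates 1 to 3, against 5.70, 5.77 and 5.65 in wildtype replicates 1 to 3. Knockout replicate 3 was the highest of all arrays and the other 5 lay within 5.61 to 5.77. The difference was 0.01 ± 0.11 (interval -0.23 to 0.25, adjusted p = 0.998), and it was -0.08 without knockout replicate 3. Fosb, a related member with a like mode of induction, was at 5.26, 4.99 and 5.21 in knockout replicates 1 to 3, against 5.26, 4.82 and 5.47 in wildtype replicates 1 to 3. Its wildtype arrays held both the lowest and the highest value. The difference was -0.03 ± 0.16 (interval -0.39 to 0.32, adjusted p = 0.998), with 0.11 without wildtype replicate 3.

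Fosl1 and Fosl2, also called Fra-1 and Fra-2, are Fos proteins without the long transactivation domain of Fos. Fosl1 was at 4.76, 5.08 and 4.79 in knockout replicates 1 to 3, against 4.86, 4.83 and 5.16 in wildtype replicates 1 to 3. The groups overlapped, and 1 array of each genotype stood above the others. Its difference was -0.07 ± 0.13 (interval -0.36 to 0.21, adjusted p = 0.99), and 0.03 without wildtype replicate 3.

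Fosl2 was at 6.16, 6.01 and 6.21 in knockout replicates 1 to 3, against 6.35, 6.38 and 6.42 in wildtype replicates 1 to 3. Every knockout value lay below every wildtype value, and the wildtype arrays were within 0.07 of each other. Its mean was 6.13 ± 0.10 in knockout and 6.38 ± 0.03 in wildtype cells (SD, n = 3 each). That is a difference of -0.25 ± 0.09 (interval -0.46 to -0.04), or 1.19-fold lower in the knockout, with an unadjusted limma p of 0.0233 and an adjusted p of 0.57. Leaving out 1 array gave differences of -0.29 to -0.20, all below 0, with adjusted p from 0.379 to 1.0. Fosl2 was therefore the member, with Batf, whose interval left out 0, while over all genes its p ranked 813 and did not pass.

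Batf proteins hold little beyond the zipper and the basic region and act with Jun partners and Irf4 or Irf8. Batf, which several effector lineages of helper T cells need, was at 7.55, 7.42 and 7.54 in knockout replicates 1 to 3, against 7.63, 7.91 and 7.77 in wildtype replicates 1 to 3. The genotypes did not overlap, though wildtype replicate 1 came near to knockout replicate 1. The mean was 7.50 ± 0.07 in knockout and 7.77 ± 0.14 in wildtype cells (SD, n = 3 each). The difference of -0.27 ± 0.10 (interval -0.50 to -0.04), or 1.204-fold lower in the knockout, had an unadjusted limma p of 0.0265 and an adjusted p of 0.592. Without wildtype replicate 2 it was -0.20, and without wildtype replicate 1 it was -0.34.

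Wildtype replicate 1 had the lowest Batf level of the wildtype arrays, and it was also the lowest for 7 of 8 regulatory T cell markers. Among the members it was the lowest wildtype array for Jun and Fosl2 too, and not for the others. Outside the family the same held for Rag1, Atf6, Map3k5 and Irf4, and the share over all genes was not counted. Foxp3, the factor that defines regulatory T cells, was at 5.58, 5.36 and 5.69 in knockout replicates 1 to 3, against 7.30, 8.29 and 8.33 in wildtype replicates 1 to 3. The 8 regulatory T cell markers averaged 6.64 to 6.78 in knockout arrays and 7.53 to 8.33 in wildtype arrays. Of the 8, limma called 4 as lower in the knockout, beside 0.567% of all genes called in either direction. Whether the markers' shift has a part in the values of Batf and Fosl2 was not tested. In bulk RNA of a sorted population, fewer cells of a type and less RNA per cell cannot be told apart.

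Batf3, which classical dendritic cells that cross-present antigen depend on, was at 4.84, 4.88 and 4.62 in knockout replicates 1 to 3, against 5.12, 4.46 and 4.92 in wildtype replicates 1 to 3. The wildtype arrays held both extremes. Its difference was -0.05 ± 0.16 (interval -0.40 to 0.30, adjusted p = 0.998), and 0.09 without wildtype replicate 1. The dendritic cell markers, 6 of 6 measured, averaged 3.82 to 4.08 in knockout arrays and 3.81 to 3.86 in wildtype arrays, below the median of all values on the arrays, 4.94. Atf3, a stress-induced factor that pairs with Jun and often represses, was at 3.52, 3.70 and 3.98 in knockout replicates 1 to 3, against 3.92, 3.73 and 3.96 in wildtype replicates 1 to 3. The highest value was in a knockout array, and so was the lowest. Its difference was -0.14 ± 0.13 (interval -0.43 to 0.15, adjusted p = 0.965).

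Batf3, Atf3 and Fosl1 had means under 4.94 and were left out where dim genes were filtered, so their values may lie near the background of the arrays. Batf3 and Atf3 are neighbours on chromosome 1, with 1 tested gene between them, and 369 and 371 tested genes away from Ptprc, whose allele marked the genotypes. Fos and Batf are close on chromosome 12 with 1 tested gene between them. Batf differed by -0.27 and Fos by 0.01.

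**Figure D2:**
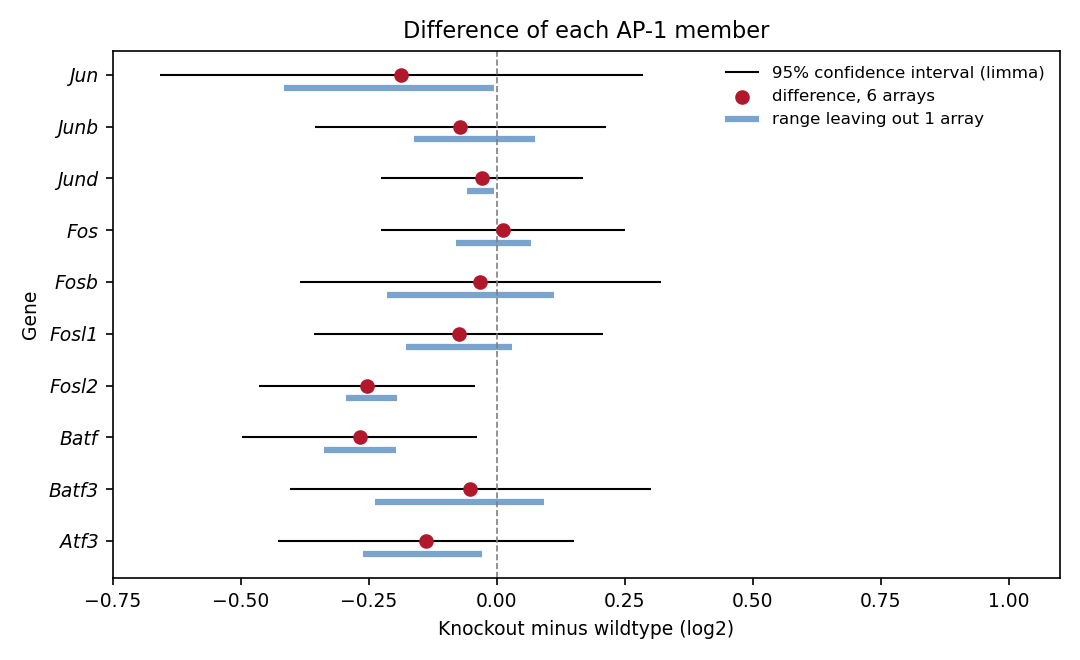
Knockout minus wildtype difference of each AP-1 member (log2, points) with its 95% confidence interval (black lines, limma) and the range of the difference when 1 array is left out (blue bars). The intervals of Fosl2 and Batf lie below 0, the other 8 include 0, and the widest is that of Jun, from -0.66 to 0.29.

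Relative to its own mean over the 6 arrays, each member was followed from array to array. The median deviation of the 10 members from their own means was -0.10, -0.07 and 0.00 in knockout replicates 1 to 3, against 0.03, 0.04 and 0.15 in wildtype replicates 1 to 3. In knockout replicate 1, 8 of 10 members lay below their means, with Jun (-0.46), Junb (-0.33) and Atf3 (-0.28) the lowest and Fosb and Batf3 above. In wildtype replicate 3, 8 of 10 lay above their means. On the other 4 arrays 3 to 6 members were above, and in wildtype replicate 2 Fosb (-0.35) and Batf3 (-0.34) were low while Jun (0.32) and Batf (0.28) were high. The spread within a group was 0.15 (median SD of the 10 members) in knockout and 0.13 in wildtype arrays, beside 0.10 and 0.14 over all genes tested. As 0 members spanned 1 or more over the arrays, no gene is named here for a pattern like theirs.

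**Figure D3:**
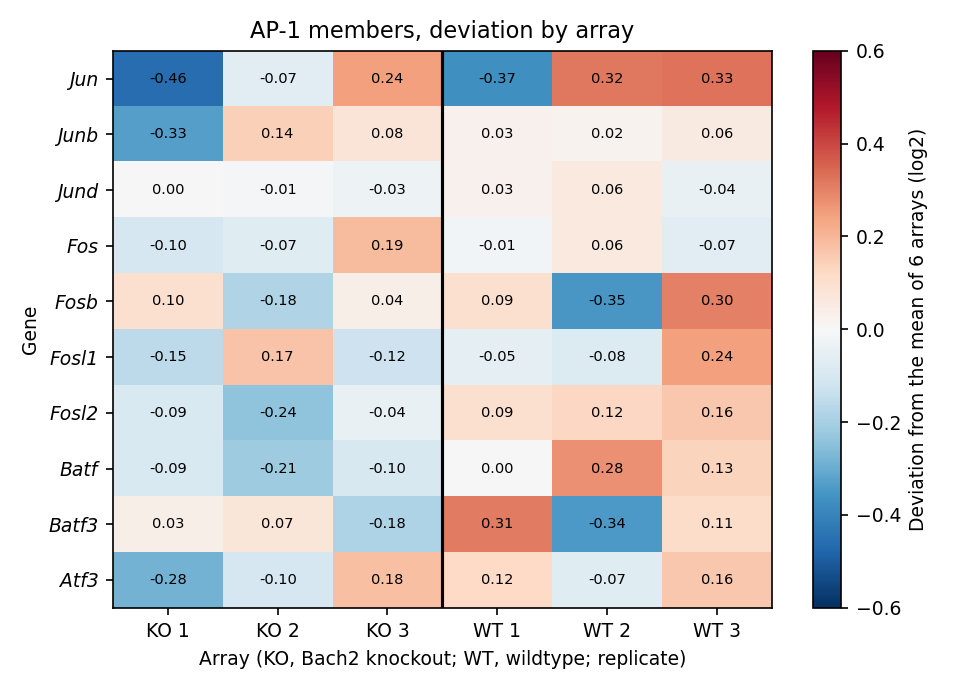
Deviation of each AP-1 member from its own mean over the 6 arrays (log2, colour and number), knockout arrays left of the line and wildtype arrays right of it. Fosl2 and Batf are below 0 in every knockout array, and Jun is lowest in replicate 1 of both genotypes, at -0.46 in the knockout and -0.37 in the wildtype.

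The other genes of the pathway were read from lists by their counts. Of 34 measured basic leucine zipper genes outside the family, 1 rose and 0 fell, beside 0.567% of all genes called, with 5 at an unadjusted p under 0.05, beside 6.91% of all genes, and a median of -0.03. The 1 was Atf6, a membrane-bound factor freed by stress in the endoplasmic reticulum. It was at 7.80, 7.41 and 7.65 in knockout replicates 1 to 3, against 6.49, 6.98 and 6.65 in wildtype replicates 1 to 3, and rose by 0.92 ± 0.14 (limma, adjusted p = 0.0209). The genotypes did not overlap, but the call was lost in 4 of the 6 fits without 1 array. The adjusted p was 0.0832 without knockout replicate 1, 0.1 without knockout replicate 3, 0.054 without wildtype replicate 1 and 0.126 without wildtype replicate 3. Atf6 lies on chromosome 1 with 172 tested genes between it and Ptprc. Of 2 further genes chosen after their values were seen, Batf2, the third Batf gene, differed by 0.30 (adjusted p = 0.7) and Jdp2, a repressor that pairs with Jun, by -0.03 (adjusted p = 0.998).

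Upstream of AP-1, 30 kinases and adaptors were measured, of which 1 rose and 0 fell, with 4 whose unadjusted p was under 0.05, all higher, and a median of 0.00. Over all 19938 genes 0.567% were called by limma and 6.91% had an unadjusted p under 0.05, with 606 genes having one as higher. Map3k5, also called ASK1, which activates the JNK and p38 kinases under oxidative stress, was at 7.59, 7.66 and 7.71 in knockout replicates 1 to 3, against 6.55, 7.05 and 6.88 in wildtype replicates 1 to 3. Every knockout array was above every wildtype array, and Map3k5 rose by 0.82 ± 0.13 (limma, adjusted p = 0.0208). Its call was lost without knockout replicate 1, 2 or 3 (adjusted p = 0.0578, 0.0962 and 0.107) and without wildtype replicate 3 (0.099). Next by p, and named after their values were seen, came Map2k3, which activates p38, at 0.31 (adjusted p = 0.431), and Mapk11, a p38 kinase, at 0.30 (adjusted p = 0.436). Serum response and ternary complex factors, which switch on Fos, numbered 7, and limma called 0 of them (0 unadjusted as well). Of these, Mef2c differed by 0.23 and Srf by -0.14.

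Among 29 immediate early genes outside AP-1, which receptor signals induce alongside Fos and Jun, 2 fell and 0 rose, with 8 at an unadjusted p under 0.05 (6 lower, 2 higher) and a median of -0.05. Over all genes 0.567% were called, 6.91% had an unadjusted p under 0.05, and 3.87% had one as lower. Nr4a3, an orphan nuclear receptor, fell by 0.60, and Dusp4, which removes phosphates from MAP kinases, fell by 1.36. Egr1, Ier2 and Dusp1, chosen after their values were seen as common companions of Fos, differed by -0.04, -0.11 and -0.17 and did not pass (adjusted p = 0.998, 0.957 and 0.822). For Nr4a3 the call was lost without knockout replicate 1, 2 or 3 (adjusted p = 0.0945, 0.12 and 0.0834) or without wildtype replicate 3 (0.0788), and for Dusp4 without knockout replicate 1 or 2 (0.0864 and 0.102) or wildtype replicate 2 or 3 (0.0815 and 0.16). The heat shock list, which rises with stress during cell isolation, numbered 9 measured genes, with 0 called by limma, 0 unadjusted, and a median of -0.03.

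Of 10 DNA-binding partners of AP-1, 0 passed by limma, with 2 at an unadjusted p under 0.05, 1 in either direction. The shares over all genes were 0.567% called and 6.91% at an unadjusted p under 0.05. Irf4, which binds DNA together with Batf and Jun, was at 7.37, 7.75 and 7.59 in knockout replicates 1 to 3, against 6.45, 7.17 and 6.87 in wildtype replicates 1 to 3. All knockout arrays were above the wildtype ones, and the difference of 0.74 ± 0.17 had an adjusted p of 0.143. It passed under 3 of 16 alternatives, among them array weights (adjusted p = 0.0337) and leaving out wildtype replicate 2 (0.0444). Irf8 differed by -0.31 (adjusted p = 0.636). Irf4 and Batf thus had differences of opposite sign, neither past the test in the fit of all 6 arrays without weights or a block.

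**Figure D4:**
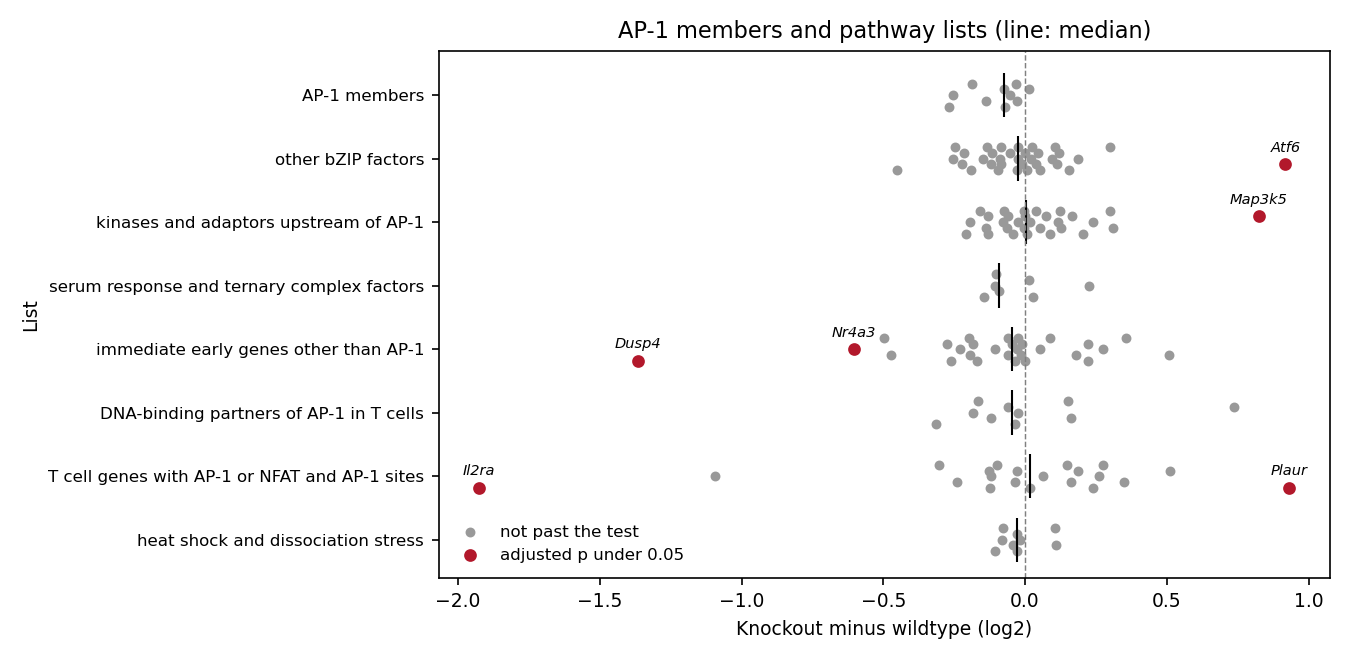
Knockout minus wildtype difference (log2) of each gene in the AP-1 family and in 7 lists of related genes, with red points for genes at an adjusted p under 0.05 and a black line for the list's median. All 10 AP-1 members lie between -0.27 and 0.01, and the red points are Atf6, Map3k5, Dusp4, Nr4a3, Il2ra and Plaur.

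Genes at which AP-1 acts were looked at through a list and through promoters. Of 21 T cell genes known to have AP-1 or joint NFAT and AP-1 sites, Plaur rose and Il2ra fell, with 7 at an unadjusted p under 0.05 (3 lower, 4 higher) and a median of 0.02. Among all genes tested 0.567% were called and 6.91% had an unadjusted p under 0.05, 3.87% as lower. The 3 lower genes were Il2ra and Ctla4, both also on the regulatory T cell list, and Il5. Il5 had means of 3.56 in knockout and 3.87 in wildtype arrays, under the dim-gene limit of 4.94. Several other genes of the list, Il2 and Ifng among them, were under it too. Plaur, the receptor for urokinase, was at 7.15, 6.71 and 6.99 in knockout replicates 1 to 3, against 5.99, 6.11 and 5.96 in wildtype replicates 1 to 3. The groups did not overlap, and the rise of 0.93 ± 0.12 (limma, adjusted p = 0.00754) lost its call without wildtype replicate 3 (adjusted p = 0.0617). Plaur is also made by myeloid cells. Of 8 macrophage and monocyte markers 6 were measured, averaging 4.15 to 4.49 in knockout arrays and 3.96 to 4.27 in wildtype arrays. Lyz2, the lysozyme gene of myeloid cells, was the 1 of the 6 that passed, at 7.03, 6.82 and 6.17 in knockout replicates 1 to 3, against 5.68, 4.97 and 5.22 in wildtype replicates 1 to 3 (limma, adjusted p = 0.0256). Its adjusted p was 0.0821 without knockout replicate 1, 0.119 without knockout replicate 2, 0.0822 without wildtype replicate 2 and 0.153 without wildtype replicate 3. Csf1r, Itgam, Cd14, Fcgr1 and Adgre1 were not called. Itgam differed by -0.33 (limma, adjusted p = 0.528), with every knockout array below every wildtype array. Csf1r and Cd14 differed by 0.078 and 0.028, and Fcgr1 and Adgre1 by -0.057 and -0.055. The part of myeloid cells in the Plaur values was not tested. Il2ra, which gives the interleukin 2 receptor its high affinity and is also one of the regulatory T cell markers above, fell by 1.93 ± 0.31 (adjusted p = 0.0245). Its call held without wildtype replicate 1 and was lost without any other single array (adjusted p = 0.0548 to 0.133).

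Promoter windows were on hand for 50 of the genes that rose and 31 of those that fell. The AP-1 site TGANTCA was in the windows of 10 of the 50 risers, 20.0%, and in 0 of the 31 genes that fell, beside 1262 of 15614 tested genes, 8.08%. TGANTCAGCA, which contains the AP-1 site, was in 2 of the 50, 0 of the 31 and 65 of the 15614, and both of those risers are counted among the 10. For TGACNTCA, the form found in the Jun window, the counts were 5 of 50 risers, 2 of 31 fallers and 8.85% of all tested genes. For TGACGT they were 6 of 50, 4 of 31 and 10.2%. Over all tested genes the median difference was -0.02 with the AP-1 site and -0.01 without it. These shares are a description without a test, since windows of 300 bases leave out enhancers and the called genes were known when the motifs were chosen.

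The sites of these risers are shown because this motif is the one that AP-1 and Bach2 can both bind. Each line gives 29 bases of the gene's strand (RefSeq, GRCm38.p6), with the AP-1 site in capitals.
Ccr4: gtttggggaaaTGAGTCActcagcttttt
Mirt1: cccccagcaggTGACTCAgcaggcccaag
Ctla2a: tccttgctgtaTGACTCAgcctgttcctt
Ctla2b: tgcttcctgtaTGACTCAgcctagtcctt
Slc9a9: tctttccagagTGAATCAtttaaagacag
Plaur: acccctggagcTGACTCActctttagcaa
S100a11: cagagacctgtTGAGTCAcagggactaca
S100a11: cgggcacagccTGAGTCAggctgaggggc
Cst7: tctggttaaaaTGATTCAgcaagaaacca
Glrx: ctaggaagtacTGACTCAtaccaaaatga
Frmd4b: tgttgctttccTGACTCAtgttgcaaggc
They lie at chr9:114496670-114496698 for Ccr4, chr19:53464919-53464947 for Mirt1, chr13:60936737-60936765 for Ctla2a, chr13:60897573-60897601 for Ctla2b, chr9:94669785-94669813 for Slc9a9 and chr7:24462403-24462431 for Plaur. Those of S100a11 are at chr3:93520349-93520377 and chr3:93520447-93520475, and the others at chr2:150570398-150570426 for Cst7, chr13:75839776-75839804 for Glrx and chr6:97459402-97459430 for Frmd4b. The lines for Mirt1 and Cst7 run on into the extended motif TGANTCAGCA. Ctla2a and Ctla2b are paralogs whose probe sets may bind each other's cDNA. These 10 genes were named after their values were seen, and rose by 0.67 (Frmd4b) to 1.65 (Ccr4, a chemokine receptor of helper and skin-homing T cells). AP-1 members themselves had 0 such sites in 9 windows, beside 7.81% of all windows with one, and differed by -0.27 to 0.01. Whether the site has a part in any of these differences was not tested.

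**Figure D5:**
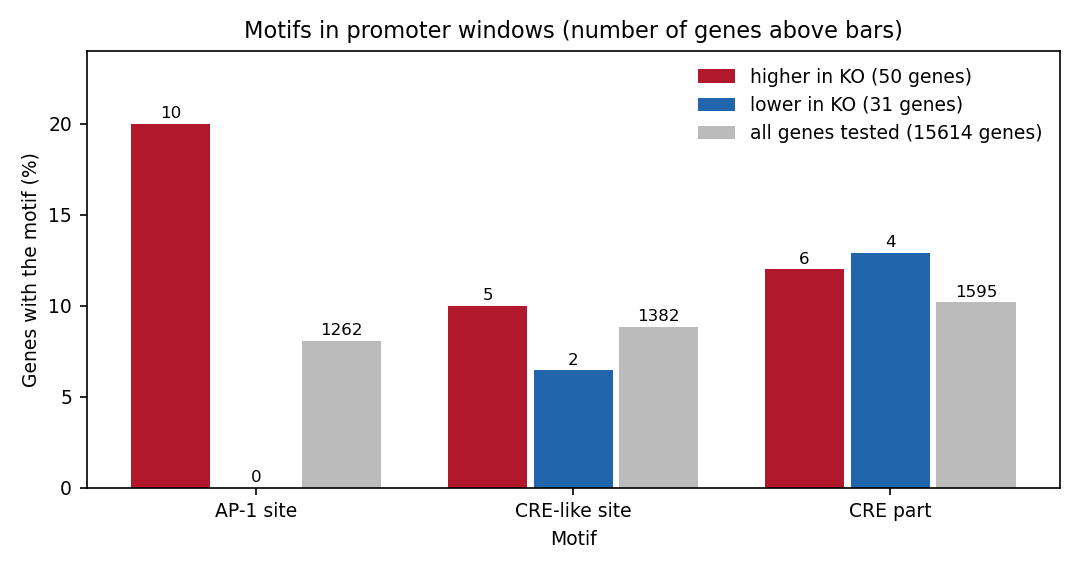
Share of genes (percent) whose promoter window holds the AP-1 site TGANTCA, TGACNTCA (CRE-like) or TGACGT (CRE part), for genes higher in the knockout, lower in the knockout and all genes tested, with the number of genes above each bar. The AP-1 site is in 20.0% of genes that rose, 0 of those that fell and 8.08% of all.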

How the data were processed

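Values were the deposited log2 values of the authors, 1 per probe set and array, made with RMA and Partek per the submitters' processing notes, which give no versions. The log2 scale was read from the values (1.10 to 13.2). RMA equalises the distributions of the arrays and would hide a change shared by all genes. Symbols came from the platform annotation. Of 35556 probe sets 21789 had 1 symbol, and each gene was represented by the one with the highest mean, giving 19938 genes. Differences were fitted with limma 3.58.1 (lmFit, eBayes, two-sided) in R 4.3.3 and adjusted by Benjamini-Hochberg over all genes, with a threshold of 0.05. Intervals are limma's 95% intervals. The procedure was tested on simulated data. Arrays give no read depth, and their number, 3 per group, limits the precision. The labels call the samples biological repeats.

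The members and lists were chosen with earlier results of these data known. Named genes were the 10 members, Bach2, called genes of each list or else the 2 with the smallest p, and markers where a cell type was checked. Others are said to be chosen after their values were seen. The design text gives the samples as from separate mice, but the labels do not say whether same-numbered arrays share a chimera. Deviations from group means of same-numbered arrays correlated across genes at 0.213, 0.113 and -0.065, so the numbers were not used as pairs in the main fit. Those of arrays with different numbers correlated at -0.257 to 0.172. These correlations cannot show whether arrays share a chimera, since deviations from a mean of 3 arrays depend on each other. Alternatives were other priors, no moderation, a dim-gene filter, centring, a second quantile normalization, array weights, mean probe sets, all probe sets, the replicate number as a block and leaving out each array. Figures used matplotlib 3.10.9.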

Additional observations from a re-analysis of the deposited data

How the results depend on the processing

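Under all 16 alternatives 0 AP-1 members were called by limma, with 0 to 3 at an unadjusted p under 0.05. Fosl2, Batf, Jun, Jund and Atf3 stayed below 0 in every fit that included them. Leaving out 1 array in turn gave -0.16 to 0.0757 for Junb, -0.0803 to 0.0662 for Fos, -0.22 to 0.11 for Fosb, -0.18 to 0.029 for Fosl1 and -0.24 to 0.0918 for Batf3, so the sign of these 5 depends on single arrays. The dim-gene filter left 10614 genes and 7 members.

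The list calls were less steady. Without moderation, or with all 35556 probe sets, each list had 0 calls. With array weights or the replicate number as a block 1 AP-1 partner (Irf4, adjusted p = 0.0337 and 0.0212) passed. Leaving out 1 array gave 0 to 1 calls among other basic leucine zipper genes, kinases and AP-1 partners, 0 to 2 among immediate early genes and 0 to 3 among T cell genes with AP-1 sites. Over all genes, 1 was higher and 0 lower without moderation, 29 higher and 8 lower with all probe sets, 78 lower with a prior that followed expression level, and 29 to 82 higher and 18 to 66 lower without 1 array. The cause of these shifts was not tested. With the block 3 T cell genes with AP-1 sites passed in place of 2, and apart from Irf4 it changed no call among members and list genes named in the text.

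Limits are the 3 arrays per group, low signal for Batf3, Atf3 and Fosl1, for which no background measure was used, mRNA rather than protein or activity, and promoter windows that leave out enhancers.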
